A study of Homo sapiens with 8 samples.

Results

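The 2 libraries described here are those labelled siNC, a negative-control siRNA, out of 8 libraries in the series, and they were chosen by that treatment label alone. Both were made from A549, an established human lung adenocarcinoma cell line, and are called library A and library B after their replicate letters. The other 6 libraries hold A549 cells with an empty vector, with overexpressed MGA or with an siRNA against MYC, and no value from them is used below. The labels state neither the dose of the siRNA nor the time after transfection, and nothing in them says that A and B came from separate cultures, so the SD over the 2 libraries may be technical. Poly(A) RNA was sequenced, and levels are given in TPM, a unit that divides reads by gene length and scales each library to the same total.

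A549 is known to carry inactivating KEAP1, STK11 and SMARCA4 mutations and a deletion on the short arm of chromosome 9. KEAP1 normally marks the transcription factor NRF2 (gene NFE2L2) for degradation; with KEAP1 impaired, NRF2 raises genes of glutathione and thioredoxin reduction, NADPH supply and aldehyde and quinone detoxification. The line is widely used as a stand-in for alveolar type 2 cells, the surfactant-secreting cells of the lung, whose identity rests on the factor NKX2-1. The values below describe which of these programmes the control libraries contained.

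Library A held 1398805 expected counts and library B 1741730, which is shallow for a transcriptome: detected genes between 5 and 10 TPM had a median of 40 counts over both libraries. A gene was taken as detected where it had at least 5 expected counts and at least 1 TPM in both libraries. Of 57820 genes listed, 11256 were detected, 40756 had 0 counts in both libraries and 5808 lay between, called trace below. The detected genes held 98.7% of TPM, and their median level was 24.0 TPM. A count of 0 is read against the level that 3 counts would give, the limit a count of 0 allows, which covers counting error only.

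Among the 52 gene lists, cytosolic ribosomal proteins took the largest mean share of TPM, 16.6%, and mitochondrially encoded proteins the next, 6.32%. The list of NRF2 targets took 3.77%, the actin and tubulin list 3.74%, the glycolysis list 2.21% and the iron list 1.69%. Lists can share genes, and FTL led both the NRF2 and the iron list. The 10 most abundant genes held 8.57% of TPM, the first 100 held 34.1%, and 287 genes held 50% of it. At or above 1000 TPM stood 156 genes with 41.4% of TPM, 1358 genes lay between 100 and 1000 TPM with 31.1%, and 7358 between 10 and 100 TPM with 25.1%. Of the first 100 genes, 47 encoded cytosolic ribosomal proteins, 13 were encoded by the mitochondrial genome, 7 belonged to the actin and tubulin list, 6 to the list of NRF2 targets and 5 to glycolysis.

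**Figure D1:**
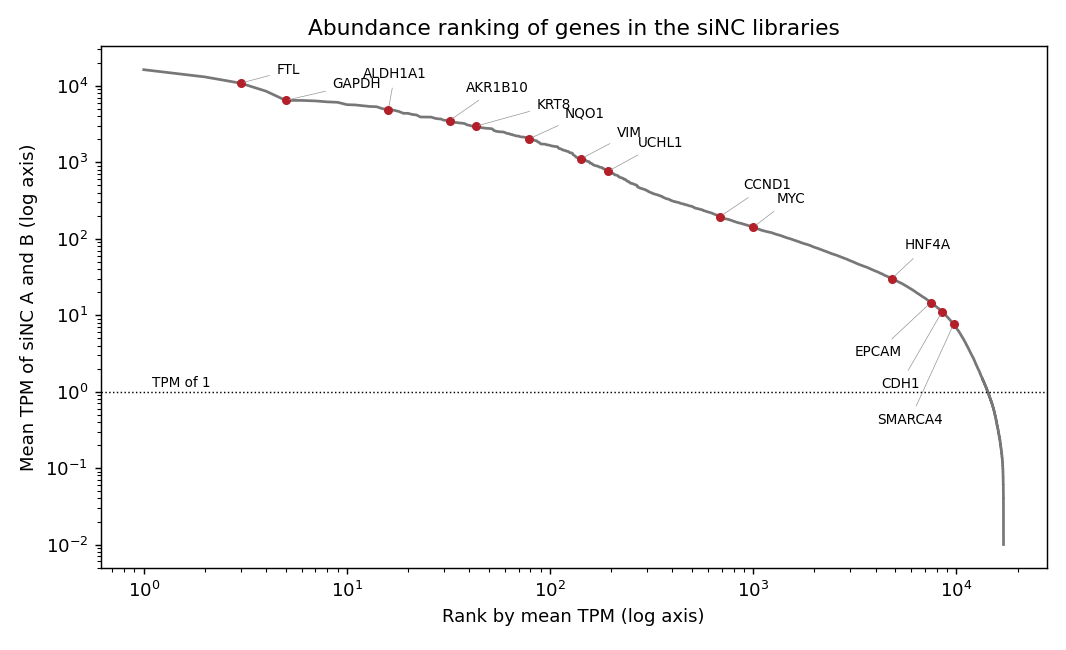
Mean TPM of siNC libraries A and B (y axis, log scale) against rank by mean TPM (x axis, log scale), with 14 genes marked in red and a dotted line at 1 TPM. FTL stands at rank 3 and ALDH1A1 at rank 16, while MYC stands at rank 1000 and SMARCA4 at rank 9680.

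FTL, the light chain of the iron store ferritin, reached 10413 TPM in library A and 11199 in library B (10806 ± 556, SD, n = 2), the highest level of any nuclear gene. FTH1, the heavy chain, reached 5477 and 5463 TPM. The glycolytic enzyme GAPDH stood at 6062 and 6821 TPM and the elongation factor EEF1A1 at 6118 and 6549, ranges that overlap, so their order is not set by these libraries. ALDH1A1, which oxidises retinaldehyde and other aldehydes, stood at 4939 and 4823 TPM (4881 ± 81.6, SD, n = 2) on 20460 counts; without division by length it was the third gene of the whole ranking. It lay above both cytoplasmic actin genes in read number, although ACTG1 at 5502 and 6649 TPM was the higher per length.

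The first place needs a length caveat. MT-ATP8, a subunit of ATP synthase encoded in the mitochondrion, was listed at 17523 and 14944 TPM but rested on only 909 counts, and it fell to rank 555 when counts were not divided by length. Reads of MT-ATP8 and MT-ATP6, which overlap on one transcript, cannot be fully told apart. MT-RNR2, the large mitochondrial ribosomal RNA, had 38689 counts and 13980 and 12131 TPM. Mitochondrially encoded genes together took 3.87% of counts in library A (95% Wilson interval 3.84 to 3.90) and 3.39% in library B (3.37 to 3.42), so the share was higher in A by more than counting error.

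Some high ranks belong to gene copies. RPL41P1, listed as a pseudogene of the ribosomal protein gene RPL41, stood at 3904 TPM beside 3698 for RPL41 itself. The readthrough gene NME1-NME2 held 2293 counts against 26.9 for NME2. For such near-identical or overlapping genes the division of reads is uncertain. Pseudogenes as annotated by GENCODE release 29 took 2.001% of TPM in library A and 2.024% in library B, protein-coding genes 93.3% and 93.9%, and long noncoding genes 1.19% and 1.13%.

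Promoter sequences of the most and least abundant genes show a contrast in base composition. RefSeq windows (GRCh38.p14) from 250 bases before to 50 bases after each gene start were matched by symbol to 80.0% of detected genes. The GC box (GGGCGG, either strand), the site of Sp-family factors, was in 65.1% of 83 windows of the 100 most abundant genes, 71.0% of 1119 windows of the next genes down to rank 1000, 67.2% of 12008 windows of other detected genes and 31.0% of 8413 windows of genes with 0 counts, against 45.0% of all 35116 windows. The TATA box (TATAAA, either strand) ran the other way, at 7.23%, 8.04%, 5.68% and 16.0% of the same sets. Median GC content was 61.3%, 65.3%, 65.3% and 53%. Windows of one gene overlap, and the most abundant genes are thinly covered, with 65 of the first 100 genes matched.

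Examples are printed from the 250 bases upstream of the start, 5′ to 3′ on the gene's strand, with GC boxes in capitals. FTL (chr19:48965059-48965308, plus strand) and GAPDH (chr12:6535014-6535263, plus strand) have 2 GC boxes each. ALDH1A1 (chr9:72953054-72953303, minus strand) ranks 16 in abundance and has none, at a GC content of 38.4%. ALB, the liver's albumin gene (chr4:73404037-73404286, plus strand), had 0 counts and has none, at 30% GC.
FTL: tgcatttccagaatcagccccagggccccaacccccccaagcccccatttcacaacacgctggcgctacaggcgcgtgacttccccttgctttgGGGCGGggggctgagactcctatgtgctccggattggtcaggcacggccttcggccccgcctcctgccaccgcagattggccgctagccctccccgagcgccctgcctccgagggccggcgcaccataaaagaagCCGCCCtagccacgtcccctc
GAPDH: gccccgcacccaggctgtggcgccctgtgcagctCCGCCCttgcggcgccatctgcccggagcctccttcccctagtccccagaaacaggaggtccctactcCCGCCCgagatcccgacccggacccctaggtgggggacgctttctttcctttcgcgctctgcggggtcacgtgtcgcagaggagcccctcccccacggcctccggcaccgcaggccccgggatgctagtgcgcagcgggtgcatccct
ALDH1A1: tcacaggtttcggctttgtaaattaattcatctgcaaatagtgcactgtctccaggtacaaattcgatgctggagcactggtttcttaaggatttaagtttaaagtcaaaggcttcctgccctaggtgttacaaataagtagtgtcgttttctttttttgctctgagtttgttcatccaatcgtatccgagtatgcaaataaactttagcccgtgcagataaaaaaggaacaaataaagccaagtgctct
ALB: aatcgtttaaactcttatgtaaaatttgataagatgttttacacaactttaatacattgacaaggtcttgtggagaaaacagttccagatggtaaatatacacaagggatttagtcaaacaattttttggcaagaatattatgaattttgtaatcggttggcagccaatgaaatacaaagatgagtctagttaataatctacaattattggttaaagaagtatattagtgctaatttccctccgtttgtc
The letters are a description of the reference and not evidence of factor binding in these cells.

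The simple-epithelial keratins KRT7, KRT8 and KRT18 stood far above the epithelial adhesion genes CDH1 and EPCAM. KRT8 stood at 2690 and 3218 TPM in libraries A and B, KRT7 at 2383 and 2630, and KRT18 at 2129 and 2484; KRT8 and KRT18 pair into the filaments of simple epithelia and KRT7 marks ducts and lung. KRT8 lay above both others in each library, and the ranges of KRT7 and KRT18 overlap. KRT19, another simple-epithelial keratin, was far lower at 58.5 and 47.4 TPM. The hair keratin KRT81 stood at 3285 and 3350 TPM, above KRT8 in both libraries, with 283 counts given to its near-copy KRT86 against 12641 for KRT81; it was in no list and is named after its value was seen.

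Several adhesion genes and splicing regulators of epithelia were low, although most detected members of the epithelial list were not. CDH1, which encodes E-cadherin, stood at 7.61 and 14.6 TPM on 112 counts, and EPCAM at 14.9 and 14.3 TPM on 23 counts, both under the detected median of 24.0. CDH2, encoding N-cadherin, was higher than CDH1 in both libraries at 60.03 and 48.9 TPM. GRHL2 and ESRP2, a transcription factor and a splicing factor of epithelia, had 0 counts, where 3 counts would be 2.22 and 1.77 TPM for GRHL2, and ESRP1 had 1 count. CLDN3, CLDN4 and CLDN7, tight-junction genes, had 3, 10 and 3 counts, whereas CLDN2 stood at 56.0 and 63.5 TPM. Of 25 matched members of the epithelial list, 18 were detected, 14 stood above the detected median and 10 reached 100 TPM. Of the 8 that passed 1000 TPM, KRT7, KRT8 and KRT18 are keratins. The other 5, ANXA1, ANXA2, S100A6, S100A10 and S100A11, are also widely expressed outside epithelia.

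Mesenchymal intermediate filament and matrix RNA was present beside the keratins. VIM, encoding vimentin, stood at 1089 and 1131 TPM (1110 ± 29.7, SD, n = 2), about the level of the annexin gene ANXA1 at 1146 and 1138. FN1, encoding fibronectin, stood at 218 and 155 TPM and the collagen gene COL5A1 at 89.9 and 80.2. The fibroblast genes COL1A2, COL3A1 and DCN had 0 counts, and ZEB1, a repressor of CDH1, stood at 12.5 and 10.7 TPM. Of 21 mesenchymal genes, 13 were detected and 3 had 0 counts. In bulk RNA a few cells with much RNA and many cells with little cannot be told apart.

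Alveolar markers that define the lung label were at 0. The surfactant genes SFTPA1, SFTPA2, SFTPB, SFTPC and SFTPD, the factor NKX2-1 and the phosphate carrier SLC34A2 had 0 counts in both libraries; 3 counts would be 1.73 and 1.38 TPM for SFTPB and 1.88 and 1.499 for NKX2-1. The lamellar-body transporter ABCA3 was detected at 14.03 and 12.7 TPM and the surfactant-lipid enzyme LPCAT1 at 54.5 and 47.9. NAPSA, a protease used to diagnose lung adenocarcinoma, had 2 counts. Of 15 alveolar type 2 markers, 4 were detected and 9 had 0 counts, so the defining secreted products of alveolar type 2 cells were not detectable at this depth. Of 9 alveolar type 1 markers 4 were detected, led by CAV1 at 317 and 300 TPM, while AQP5 and PDPN had 0 counts. The airway genes SCGB1A1, KRT5 and KRT14 also had 0 counts, and FOXJ1 had 2.

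Endoderm factors of liver and gut were present. HNF4A stood at 24.2 and 36.0 TPM, FOXA2 at 28.4 and 32.3 and FOXA1 at 7.30 and 14.8; these transcription factors set hepatic and foregut programmes. Of 21 endoderm factors, 12 were detected, and the gut factors CDX1 and PDX1 had 0 counts. Part of the hepatic secretory output was there too. The 3 fibrinogen chains were detected, with FGB at 24.8 and 45.6 TPM, FGG at 13.1 and 26.5 and FGA at 14.5 and 23.6, each higher in library B. C3, a complement protein, stood at 77.3 and 89.5 TPM. ALB, APOA1, APOB, SERPINA1 and TTR had 0 counts, and in all 10 of 31 hepatocyte genes were detected and 12 had 0 counts.

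**Figure D2:**
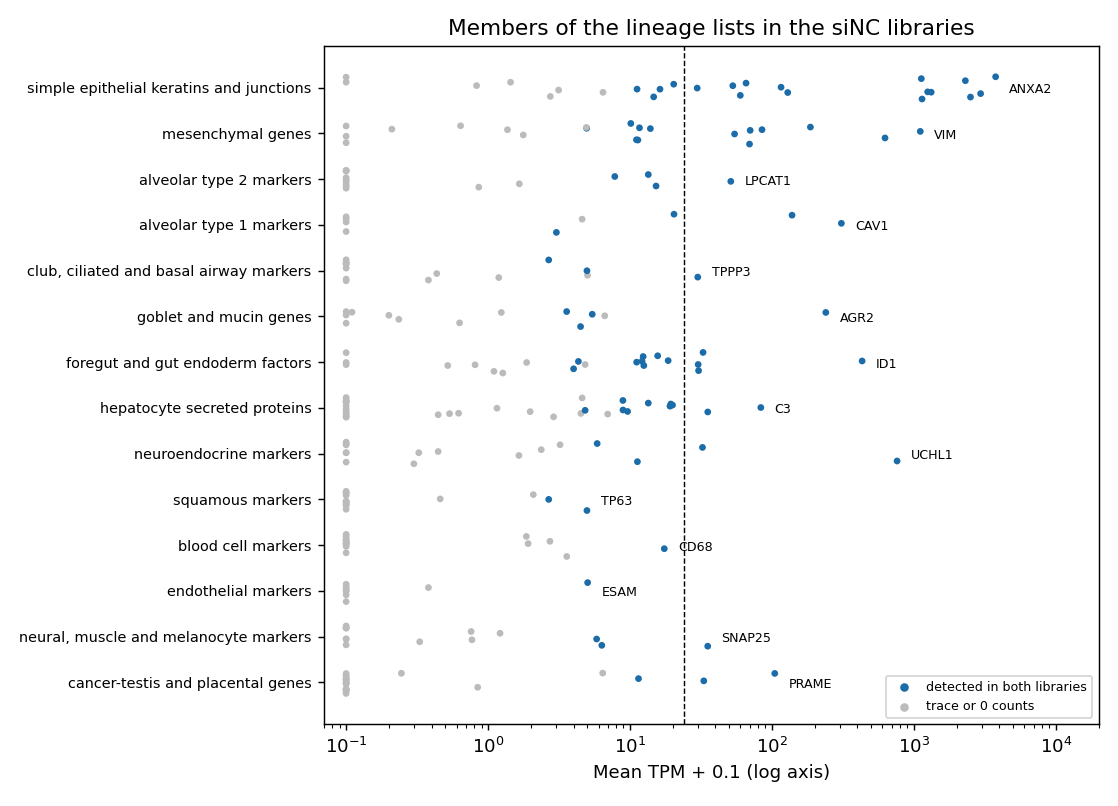
Mean TPM plus 0.1 (x axis, log scale) of each member of 14 lineage lists (rows) in the siNC libraries, with blue points detected in both libraries and grey points at trace or 0 counts; the leading gene of each list is named and the dashed line marks the median of all detected genes. Epithelial members reach beyond 1000 TPM, while squamous, blood and endothelial members lie left of the line.

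A few genes of other lineages were high in lists of which most members were at trace or 0 counts. UCHL1, a neuronal and neuroendocrine deubiquitinase, stood at 728 and 795 TPM, while NCAM1, INSM1 and NEUROD1 had 0 counts; 4 of 16 neuroendocrine markers were detected, the others being ENO2 at 38.8 and 25.9, DDC at 14.8 and 7.61 and DLL3 at 6.07 and 5.47. SNAP25, a synaptic-vesicle fusion gene, stood at 34.3 and 36.1 TPM. AGR2, a disulfide isomerase of mucus-secreting cells, stood at 233 and 246 TPM, while MUC5AC was at 2.49 and 4.47 and TFF3 had 0 counts; 4 of 13 goblet and mucin genes were detected. PRAME, a tumour antigen silent in most adult tissues, stood at 100.3 and 109 TPM, and of 22 cancer-testis and placental genes 3 were detected, with XAGE1A at 39.1 and 26.9 and MAGEA6 at 13.2 and 9.54, and 16 had 0 counts.

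Markers of other cell types that a culture could hold were at or near 0. Of 16 blood markers 11 had 0 counts, PTPRC, CD3D and HBB among them, and only CD68, which lysosomes of many cells use, was detected at 18.3 and 16.4 TPM. Of 9 matched endothelial markers 7 had 0 counts, CDH5 and VWF among them. The summed blood list took 0.00323% of TPM in library A and 0.00218% in library B, and the endothelial list 0.000534% and 0.000508%. Squamous keratins KRT5, KRT6A, KRT14, KRT16 and KRT17 had 0 counts, and TP63 stood at 6.81 and 2.94 TPM.

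The MAP kinase cascade, which carries growth factor signals to the nucleus, was present throughout. HRAS stood at 104 and 103 TPM and NRAS, its paralog, at 23.3 and 24.0, ranges that do not overlap. All 21 members of the RAS-RAF-MEK-ERK list were detected, with a median of 49.99 TPM against 24.0 for all detected genes. Among ERK outputs, HMGA1 stood at 426 and 457 TPM, CCND1 at 173 and 216 and FOSL1 at 93.1 and 96.3. The ERK phosphatase DUSP6 stood at only 9.85 and 9 TPM and the inhibitors SPRY2 and SPRY4 at 8.47 and 7.02 and at 7.34 and 4.64, whereas DUSP4 and DUSP5 stood at 65.4 and 51.7 and at 66.0 and 58.8. RNA levels do not show the activity of the pathway.

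Of 31 receptor tyrosine kinases, 17 were detected and 8 had 0 counts. AXL led at 163 and 148 TPM, followed by FGFR1 at 109 and 133 and NTRK3 at 100.2 and 105; the ranges of FGFR1 and NTRK3 do not overlap. NTRK3, the neurotrophin receptor TRKC, rested on 580 counts. EGFR stood at 58.2 and 41.7 TPM, MET at 57.0 and 37.5 and IGF1R at 55.5 and 56.1, and these 3 overlap. ALK, ROS1, KIT and ERBB4 had 0 counts and RET had 2, so these 5 were not detectable at this depth. The EGFR ligands EREG at 112 and 75.9 TPM and AREG at 78.2 and 88.5 were detected in both libraries.

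MYC stood at 152 and 130 TPM (141 ± 15.9, SD, n = 2), rank 1000 of all genes, on 620 counts, and it held over 99% of the TPM of the 3 MYC genes, since MYCN had 0 counts and MYCL1 had 5. MAX, its obligate partner, stood at 41.5 and 44.1 TPM, and the antagonists were lower: MNT at 11.6 and 18.8, MXD4 at 9.76 and 11.4, MXI1 at 8.14 and 7.72 and MGA at 5.93 and 6.02. MGA, a scaffold that pairs with MAX and the gene the series manipulates in other groups, thus ranked 10349 without overexpression, on 151 counts. Of 13 members of this network 10 were detected.

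Cyclin D1 and CDK4 RNA, which drive entry into the cell cycle, stood well above the median of detected genes. CDK4 stood at 254 and 284 TPM and CDK6 at 34.3 and 36.0; CCND1 stood at 173 and 216 TPM, above CCND3 at 54.5 and 62.1, and CCND2 had 0 counts. CDKN2A and CDKN2B, which encode the CDK4 and CDK6 inhibitors p16 and p15, had 0 counts, where 3 counts would be 5.37 and 4.26 TPM for CDKN2A and 2.33 and 1.85 for CDKN2B. Of the other inhibitors in the same family, CDKN2C was detected at 18.7 and 15.6 TPM and CDKN2D had 1 count. All 31 mitosis and replication markers were detected, 30 of them above the median of detected genes, with PCNA at 458 and 455 TPM, TOP2A at 326 and 358 and CCNB1 at 260 and 264.

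Around CDKN2A and CDKN2B on chromosome 9, the nearest protein-coding genes held a few counts each. MTAP, the neighbour of CDKN2A and a widely expressed enzyme of methionine salvage, had 4.31 expected counts in total, and DMRTA1, beside CDKN2B, had 6, so both were at trace. In RefSeq gene order from MLLT3 to ELAVL2, 25 protein-coding genes were matched, of which 4 were detected and 18 had 0 counts, beside 10643 detected of all 19263 protein-coding genes listed. Of the 25, 16 are interferon genes, which are silent in most unstimulated cells and of which 15 had 0 counts, so nothing is read from the share for the region. The 4 detected genes were MLLT3 at 16.9 and 15.9 TPM, FOCAD at 40.5 and 21.4, HACD4 at 2.64 and 1.74 and KLHL9 at 10.99 and 11.8. RNA alone does not tell a deleted gene from a silent one.

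Other tumour suppressors known to be mutated in A549 kept RNA. KEAP1 stood at 68.1 and 78.2 TPM and STK11 at 25.8 and 34.1. SMARCA4, one of the 2 ATPase genes of SWI/SNF chromatin remodelling, stood at 6.61 and 8.49 TPM on 48 counts, the lowest of 18 SWI/SNF genes, and its paralog SMARCA2 at 31.2 and 23.8. The ranges of SMARCA4 and SMARCA2 do not overlap. RB1, which is not among the mutated genes named above, stood at 18.5 and 17.4 TPM. Genes of apoptosis and cell cycle arrest were detected as well, with the pore-forming BAX at 216 and 247 TPM, the death receptor TNFRSF10B at 167 and 156 and the CDK inhibitor CDKN1A at 66.2 and 89.1. BCL2L1, the anti-apoptotic gene for BCL-XL, stood at 140 and 132 TPM, whereas BCL2 stood at 1.46 and 1.68. TERT, the catalytic subunit of telomerase, had 10 counts, while the telomerase-associated genes NHP2 at 412 and 404 TPM and DKC1 at 165 and 165 were abundant.

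Among long noncoding RNAs known from lung cancer, 12 of 17 were detected. GAS5, a host of small nucleolar RNAs, led at 391 and 355 TPM, followed by MALAT1 at 283 and 235 and NEAT1 at 134 and 107, which mark nuclear speckles and paraspeckles. PVT1, a neighbour of MYC, stood at 90.1 and 68.1 TPM on 74 counts, and UCA1 and HOTAIR had 0 counts. GAS5, MALAT1, NEAT1 and PVT1 were each higher in library A.

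**Figure D3:**
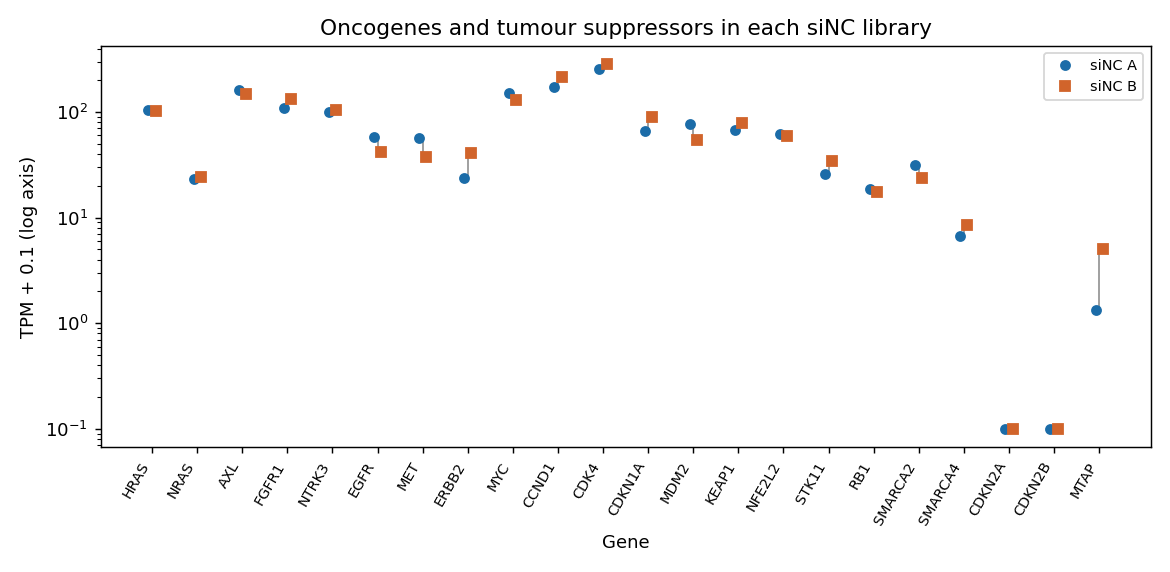
TPM plus 0.1 (y axis, log scale) of 22 oncogenes and tumour suppressors in siNC library A (blue circles) and library B (orange squares), joined by a line for each gene. HRAS lies above NRAS, and CDKN2A and CDKN2B lie at the bottom with 0 counts.

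The NRF2 list had a higher median level than any other list of nuclear metabolic genes. The members of all lists were chosen with earlier results of these data known. The place of this list and its lack of low members therefore describe the genes chosen and are no independent support for the programme. All 34 members were detected and all 34 stood above the median of detected genes; 27 passed 100 TPM and 11 passed 1000, and together they took 3.64% of TPM in library A and 3.90% in library B. The median member stood at 373 TPM, against 24.0 for detected genes. The 2 ferritin genes alone held 1.63%. AKR1B10, a reductase of retinaldehyde and lipid aldehydes, stood at 3246 and 3749 TPM, AKR1C2 at 2455 and 2651 and NQO1, which reduces quinones, at 1963 and 2095. The members of the AKR1C family are near-identical in sequence, so their split between AKR1C2, AKR1C3 (1055 and 1150 TPM) and AKR1C1 (452 and 469) is uncertain; AKR1C4 had 0 counts. NFE2L2 itself stood at only 62.2 and 59.1 TPM, near KEAP1.

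The core of the antioxidant response element, TGACNNNGC, through which NRF2 acts, was searched in the RefSeq windows on both strands. It was in 9 of 30 windows of the list (30%), against 13.3% of all windows and 14.3% of windows of other detected genes. Windows of abundant genes had it more often, at 19.3% for the first 100 genes and 16.3% for the next down to rank 1000. The mitosis, ribosomal protein and glycolysis lists had it in 17.6%, 14.1% and 9.43% of windows. TXNRD1 had it in 2 windows, so the 9 windows are not 9 genes. Within the 250 bases before the start, 8 of 23 members with a window had it, and 3 members that stood high are printed with the element in capitals. TXNRD1, thioredoxin reductase, stood at 910 and 887 TPM (chr12:104215529-104215778, plus strand). PGD, an NADPH-forming enzyme of the pentose phosphate pathway, stood at 926 and 1023 TPM (chr1:10398814-10399063, plus strand). GPX2, a glutathione peroxidase of gut-type epithelium, stood at 289 and 396 TPM (chr14:64942746-64942995, minus strand).
TXNRD1: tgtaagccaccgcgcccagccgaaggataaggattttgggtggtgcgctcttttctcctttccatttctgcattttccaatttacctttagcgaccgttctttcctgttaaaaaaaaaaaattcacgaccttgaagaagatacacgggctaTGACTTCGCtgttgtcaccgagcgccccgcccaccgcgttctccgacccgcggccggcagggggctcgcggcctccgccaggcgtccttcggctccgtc
PGD: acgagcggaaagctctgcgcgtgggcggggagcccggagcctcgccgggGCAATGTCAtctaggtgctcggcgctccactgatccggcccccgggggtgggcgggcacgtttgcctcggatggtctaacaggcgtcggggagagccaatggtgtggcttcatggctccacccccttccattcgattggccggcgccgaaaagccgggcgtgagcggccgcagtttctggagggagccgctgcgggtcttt
GPX2: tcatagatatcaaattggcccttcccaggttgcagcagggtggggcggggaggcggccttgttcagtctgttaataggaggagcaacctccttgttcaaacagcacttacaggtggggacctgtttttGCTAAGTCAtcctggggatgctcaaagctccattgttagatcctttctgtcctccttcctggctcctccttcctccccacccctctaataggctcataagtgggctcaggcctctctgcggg
NQO1, AKR1B1 and FTL have no match in the 250 bases before their starts, which says only that these letters are not in those stretches.

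The mitosis and replication list differed from the table in another motif. The CCAAT box (CCAAT, either strand), bound by NF-Y, was in 28 of its 34 windows (82.4%), against 34.6% of all windows and 34.2% of windows of other detected genes. The NRF2 list was also above these, at 17 of 30 windows (56.7%). The first 100 genes stood at 33.7% and the next down to rank 1000 at 40.4%. The ribosomal protein and glycolysis lists stood at 33.3% and 24.5%. TOP2A, the mitotic topoisomerase (chr17:40417897-40418146, minus strand), has 4 upstream of its start, and the mitotic cyclin gene CCNB1 (chr5:69166900-69167149, plus strand) has 2, shown in capitals.
TOP2A: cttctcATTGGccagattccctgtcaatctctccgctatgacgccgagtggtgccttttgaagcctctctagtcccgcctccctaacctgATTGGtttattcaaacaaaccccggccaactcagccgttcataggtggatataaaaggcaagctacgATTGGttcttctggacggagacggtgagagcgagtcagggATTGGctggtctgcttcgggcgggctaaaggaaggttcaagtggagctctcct
CCNB1: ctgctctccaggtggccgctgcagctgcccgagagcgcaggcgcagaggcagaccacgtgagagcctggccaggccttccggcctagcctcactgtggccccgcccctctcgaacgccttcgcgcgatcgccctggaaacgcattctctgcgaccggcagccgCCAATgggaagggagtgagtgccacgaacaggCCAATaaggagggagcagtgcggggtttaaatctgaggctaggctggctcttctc
Both genes were among the 3 most abundant of their list.

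Central carbon metabolism was described by which isozyme held each step. The 44 gene families counted next also include signalling, lineage and cytoskeletal families outside metabolism. A share is that of the members listed, which in several families are only some of the genes. Over all 44, the leading member held over 90% of the family's TPM in both libraries in 13 and over 50% in 35. The leader was the same gene in both libraries in 42. In glycolysis, HK1 stood at 28.6 and 32.1 TPM and HK2, the isozyme typical of many tumours, at 1.28 and 0.64 on 11 counts. PFKP stood at 353 and 382 TPM, with 79.7% and 78.7% of phosphofructokinase TPM. ALDOA at 2147 and 2339 TPM and PKM at 2184 and 2235 each led their step, and the liver pyruvate kinase PKLR had 0 counts, where 3 counts would be 2.03 and 1.62 TPM. LDHA stood at 2281 and 2507 TPM and LDHB at 1428 and 1526. SLC2A1 held 85.5% and 89.2% of the TPM of the 4 glucose transporter genes listed, SLC2A1 to SLC2A4. HK1 was thus lower in both libraries than the leading gene of every other glycolytic step on the list, from GPI at 780 and 944 TPM to LDHA.

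The pentose phosphate list had a median of 60.8 TPM, near the 52.1 TPM of the glucose uptake and glycolysis list. Its mean share of TPM was smaller, 0.370% against 2.21%, with 2 against 7 members over 1000 TPM. PGD stood at 926 and 1023 TPM, TKT, which shuttles carbons between sugars, at 954 and 1134 and TALDO1 at 356 and 397, while TKTL1 had 0 counts. PGD, TKT and TALDO1 were each higher in library B. IDH1, the cytosolic NADP enzyme, held 72.6% and 76.4% of the TPM of the IDH1 and IDH2 pair. Among the 6 glutathione peroxidase genes listed, GPX2 led with 38.8% and 43.8% over GPX4 and GPX1. PRDX1 at 1663 and 1714 TPM held 59.2% and 58.9% of the TPM of the 6 peroxiredoxin genes listed. PRDX2, another of the 6, had only 1 count and is named after its value was seen.

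**Figure D4:**
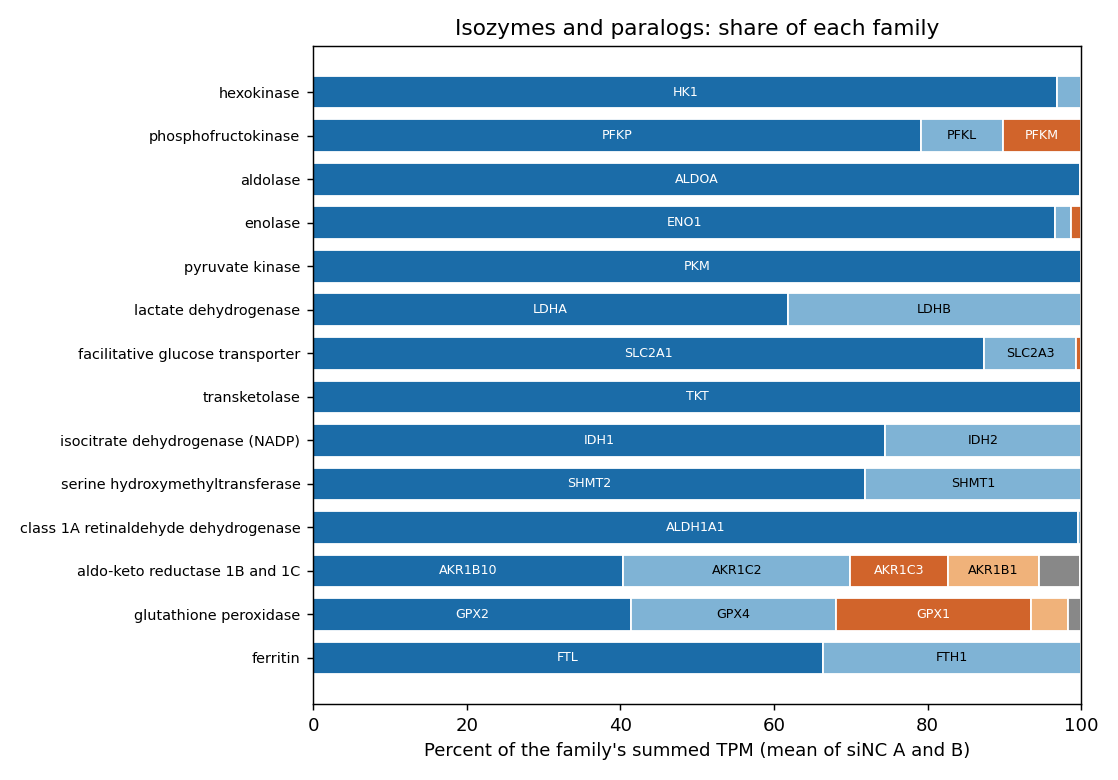
Percent of each family's summed TPM (x axis, mean of siNC libraries A and B) held by each member in 14 metabolic families (rows), with segments ordered by share and named where over 8%. Shares are of the members listed only. PKM and TKT fill their rows, while the aldo-keto reductase and glutathione peroxidase rows are split among several genes.

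On the aldehyde and drug metabolism list, ALDH1A1 stood first. It held 99.7% and 99.5% of class 1A retinaldehyde dehydrogenase TPM, with ALDH1A3 at 13.0 and 25.2 TPM and ALDH1A2 at 0 counts. GSTP1, a glutathione transferase, stood at 1436 and 1582 TPM and MGST1 at 665 and 745. CYP24A1, which inactivates vitamin D, stood at 802 and 602 TPM on 3377 counts, and ALDH3A1 at 527 and 655. Of 34 genes on this list 27 were detected.

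Amino acid supply was led by the transporter of large neutral amino acids. SLC7A5 stood at 702 and 913 TPM and its partner SLC3A2 at 633 and 730, above the glutamine carrier SLC1A5 at 216 and 232. SHMT2, the mitochondrial serine hydroxymethyltransferase, held 74.8% and 69.0% of its family over SHMT1. CPS1, the urea cycle entry enzyme that LKB1-deficient lung cancers are known to express, was detected at 17.6 and 20.97 TPM on 234 counts.

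All 28 genes of purine and pyrimidine synthesis were detected, with a median of 91.7 TPM and NME1, a nucleoside diphosphate kinase, in front at 574 and 671. Of 20 serine, glycine and one-carbon genes 17 were detected, led by AHCY at 267 and 295 TPM and MAT2A at 254 and 253, enzymes of the methyl-donor cycle. Of 13 polyamine genes 12 were detected, and EIF5A, the translation factor that carries a modified polyamine residue, stood at 1350 and 1494 TPM.

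Mitochondrial energy genes were broadly present. All 56 nuclear oxidative phosphorylation subunits were detected, 50 at or above 100 TPM, with a median of 265 TPM and ATP5B in front at 918 and 885. Of 36 TCA cycle and pyruvate-entry genes 34 were detected, with a median of 57.5 TPM. Lipid synthesis stood lower: ACLY led at 370 and 397 TPM and SCD stood at 209 and 236, with 96.4% and 96.9% of the desaturase pair. Of 26 cholesterol genes 25 were detected, with a median of 37.7 TPM. CA12, a cell-surface carbonic anhydrase, held 94.0% and 95.6% of the TPM of the 3 carbonic anhydrase genes listed, CA2, CA9 and CA12. CA9 stood at 12.3 and 11.4 TPM.

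Translation machinery held the largest share of TPM among the 52 lists. The 79 cytosolic ribosomal protein genes were all detected and took 16.4% and 16.9% of TPM; 67 passed 1000 TPM, led by RPS16 at 6378 and 6484. The range within this list is wide although most of these proteins are present in equal number in a ribosome, and for RPL9 and RPL21 pseudogene copies held more counts than the gene, 1024 against 272 and 635 against 108; the pair is named after their values were seen. All 25 proteasome genes and all 17 genes of the endoplasmic reticulum and secretion list were detected, with medians of 222 and 284 TPM. Among secreted products, IGFBP4, which binds insulin-like growth factors, led at 1924 and 1993 TPM, followed by the matrix protein TGFBI at 1435 and 1331.

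The 2 libraries were close but not identical. Over 11762 genes with at least 10 counts, the chi-square statistic of the rounded counts per degree of freedom was 1.77, so the deposited tables are not the same counts under different names; this does not show that the cultures were separate. Among 8481 genes with at least 50 counts in total the median absolute log2 ratio was 0.23 in TPM and 0.17 in CPM, which scales counts to the library total without division by length, and 96.7% lay within a factor of 2 in TPM. Across these genes, which are not independent replicates, Pearson's r of log2(TPM + 0.1) was 0.968. The median absolute log2 TPM ratio fell with abundance, from 0.42 at 5 to 10 TPM to 0.09 at 1000 TPM and above.

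The largest differences were of more than one kind. ATP6V1G2-DDX39B, a readthrough gene, had 1.05 counts in A and 63.8 in B, and overlaps DDX39B. PTP4A1, a phosphatase, stood at 205 and 1225 TPM with 814 and 956 counts; its effective length was 4036 bases in A and 635 in B, so the log2 ratio of -2.58 in TPM was 0.08 in CPM. TMCC1 and GPR107 had log2 TPM ratios of 2.36 and 2.11 and CPM ratios of 0.94 and 0.32, with effective lengths that also differed. Of 281 genes beyond a factor of 2 in TPM, 34 were beyond it in CPM as well.

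IL8, the neutrophil chemokine CXCL8, differed on both scales: 77.0 and 9.34 TPM, 113 and 16 counts, a log2 ratio of 3.03 in TPM and 3.07 in CPM. Further chemokines and an NF-kB target, named after their values were seen, lay on the same side. CXCL5 stood at 406 and 148 TPM on 929 and 424 counts, CXCL1 at 70.7 and 18.1, CXCL2 at 74.0 and 24.9 and CCL2 at 117 and 45.7, and the mitochondrial dismutase SOD2 stood at 217 and 92.3. All 6 genes were higher in A, with 1 library on each side and so no test; the cytokine list as a whole took 0.215% of TPM in A and 0.151% in B. Levels of these genes, and of lists that hold them, are therefore known only to within this spread.

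**Figure D5:**
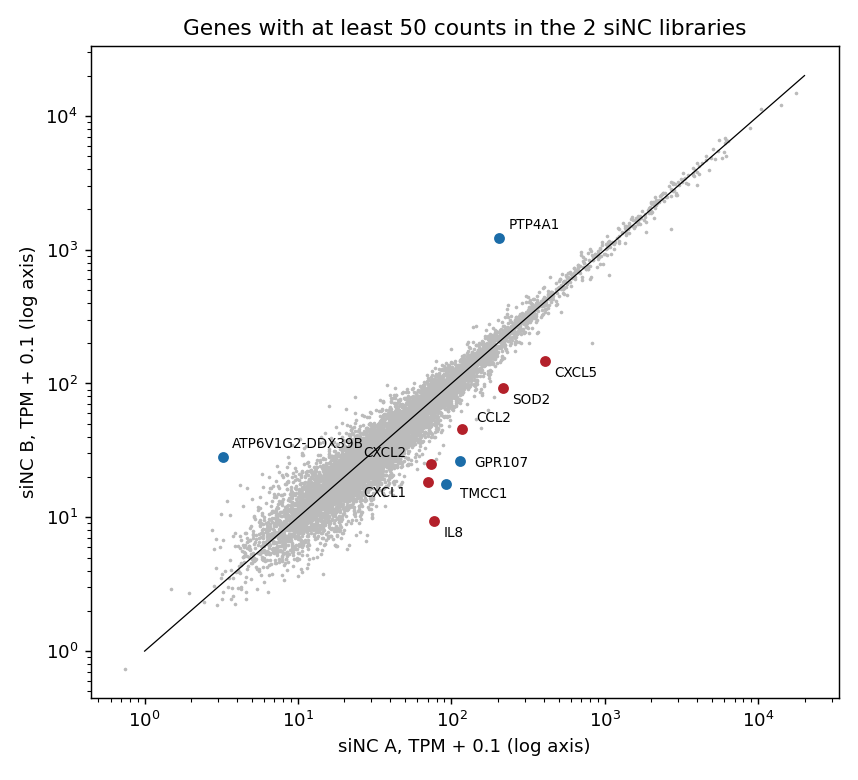
TPM plus 0.1 in siNC library A (x axis) and library B (y axis), both on log scales, for genes with at least 50 counts in total, with the line of equality. Red points are 6 chemokine and related genes that lie below the line, and blue points are a readthrough gene and 3 genes whose effective length differs between the libraries.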

How the data were processed

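Gene-level tables of the 2 siNC libraries were read; the tables of the other 6 libraries were not used here. Reads had been handled with STAR and RSEM on hg19, per the submitters' processing notes; the sources used here give neither their versions nor the annotation or strand setting. The authors deposited expected counts (estimated counts that need not be whole), TPM and FPKM per gene, as named per the file headers. Poly(A) RNA was used, per the labels' protocols. TPM is the unit of all levels, with mean and SD over n = 2; CPM was computed from the expected counts, and no test between samples was made. A log2 ratio used a pseudocount of 0.1 TPM or 0.5 CPM.

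Detected means at least 5 expected counts and 1 TPM in both libraries. 52 gene lists (1154 of 1156 genes matched by symbol, current or older) and 44 families were used; the members and lists were chosen with earlier results of these data known. Named genes are the 30 of highest TPM, any lineage or oncogene list member, the first 5 of other lists, leading, second and 0-count family members, and the 5 largest A-to-B ratios; exceptions are stated. Depth was 1398805 and 1741730 expected counts. Promoter windows are RefSeq, GRCh38.p14; gene types come from GENCODE. Level and rank summaries were tested on simulated data. Python 3.11.15, pandas 2.3.3, numpy 2.4.6, scipy 1.17.1 and matplotlib 3.10.9 were used. Alternatives were each library alone, a geometric mean, other detection thresholds, 2 rescalings, CPM and FPKM.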

Additional observations from a re-analysis of the deposited data

How the results depend on the processing

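The count of 11256 detected genes ranged from 10177 (at least 10 counts) to 12661 (no filter on counts), and from 11583 to 11884 with 1 library alone. Without 1 library, the share of TPM in the first 100 genes ranged from 34.0% to 34.2%, that in the first 10 from 8.48% to 8.75%, and the genes holding 50% of TPM from 284 to 288. The first 100 genes held 34.4% with a geometric mean. Without mitochondrially encoded genes the first 10 and 100 held 6.82% and 30.8%. Without genes of effective length under 200 bases they held 7.98% and 33.0%. On the CPM scale, which does not divide by length, they held 6.01% and 21.1%, and 862 genes held 50% of the total. FPKM gave the same values as TPM to the digits printed. Of the 30 highest genes, 29 remained with either library alone, 25 without short genes, 21 without mitochondrial genes and 14 in CPM. Of 52 list shares, 48 moved by more than the SD of the libraries in CPM and 45 without mitochondrial genes. The rank of MT-ATP8 went from 1 to 555 in CPM. No paired analysis was possible because no comparison between groups was made. Depth limits genes under about 10 TPM, where 0 and trace levels are upper limits only.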
